A study of Xenopus laevis with 6 samples.

Results

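The annexin genes were followed on arrays of the dorsal part of gastrulae of the frog Xenopus laevis. Members were all probe sets whose gene symbol in the platform annotation, without its .L or .S ending, was anxa1, anxa2, anxa4, anxa5, anxa6, anxa7, anxa11 or anxa13. This gave 13 of 11433 gene symbols and 23 of the 32634 probe sets on the array. They were 3 of anxa2, 2 of anxa4, 8 of anxa5, 1 of anxa6, 3 of anxa7, 5 of anxa11 and 1 of anxa13. For anxa1 the rule found 0, because the platform lists that gene as the neighbouring copies anxa1.1, anxa1.2 and anxa1.3. The endings .L and .S mark the copies of a gene on the long and short chromosome sets of this species, called homeologs.

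At the 4-cell stage, each dorsal blastomere received 10 ng of a morpholino oligonucleotide (MO) against apcdd1 in one group, and as much of a control MO in the other. A morpholino is a synthetic antisense molecule that blocks translation or splicing of its target RNA. The product of apcdd1 sits in the membrane and dampens Wnt and BMP signalling. Embryos of both groups reached stage 10.5, the early gastrula with a marked dorsal lip, at 16 degrees C, and their dorsal pieces were pooled in batches of 10 embryos, with 3 batches and 3 arrays per group. Embryos with the apcdd1 MO were in addition marked on the ventral side with Nile Blue, since in some of them the lip appeared late, so dye and delay go with the group and cannot be told apart from the MO. The labels of the control samples differ among themselves, since the treatment text gives the apcdd1 MO and the genotype the control MO; title and genotype were followed. Whether batches came from separate clutches is not stated, and the p-values cover only the spread among these batches.

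Annexins are cytosolic proteins that bind acidic phospholipids of membranes when calcium rises. They are known for organising membrane domains, for vesicle traffic and for sealing wounds of the plasma membrane. They share a conserved core of repeated units that carries the calcium sites, and differ mainly in the N-terminal part, which in several of them binds S100 or other EF-hand proteins.

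On 14 of the 23 annexin probe sets the signal was bright enough to test. The rule for testing was a mean log2 signal at or above the 40th percentile of all probe sets, which equals a signal of 22.3. The 9 others are described by their levels below. Of the 14, 1 passed the threshold upward (adjusted p under 0.05 in limma, Benjamini-Hochberg over 19484 probe sets) and 0 downward, beside 3.00% and 3.61% of all tested probe sets. At an unadjusted p under 0.05 the counts were 2 upward and 3 downward, beside 8.99% and 9.99% of all tested probe sets. The family was picked with this contrast already known, so nothing is read from these counts. The median log2 change over the 14 was -0.05, and over all tested probe sets 0.00033. Among the 14, 5 had a positive and 9 a negative log2 change, beside 9756 and 9728 of all 19484 tested probe sets.

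**Figure D1:**
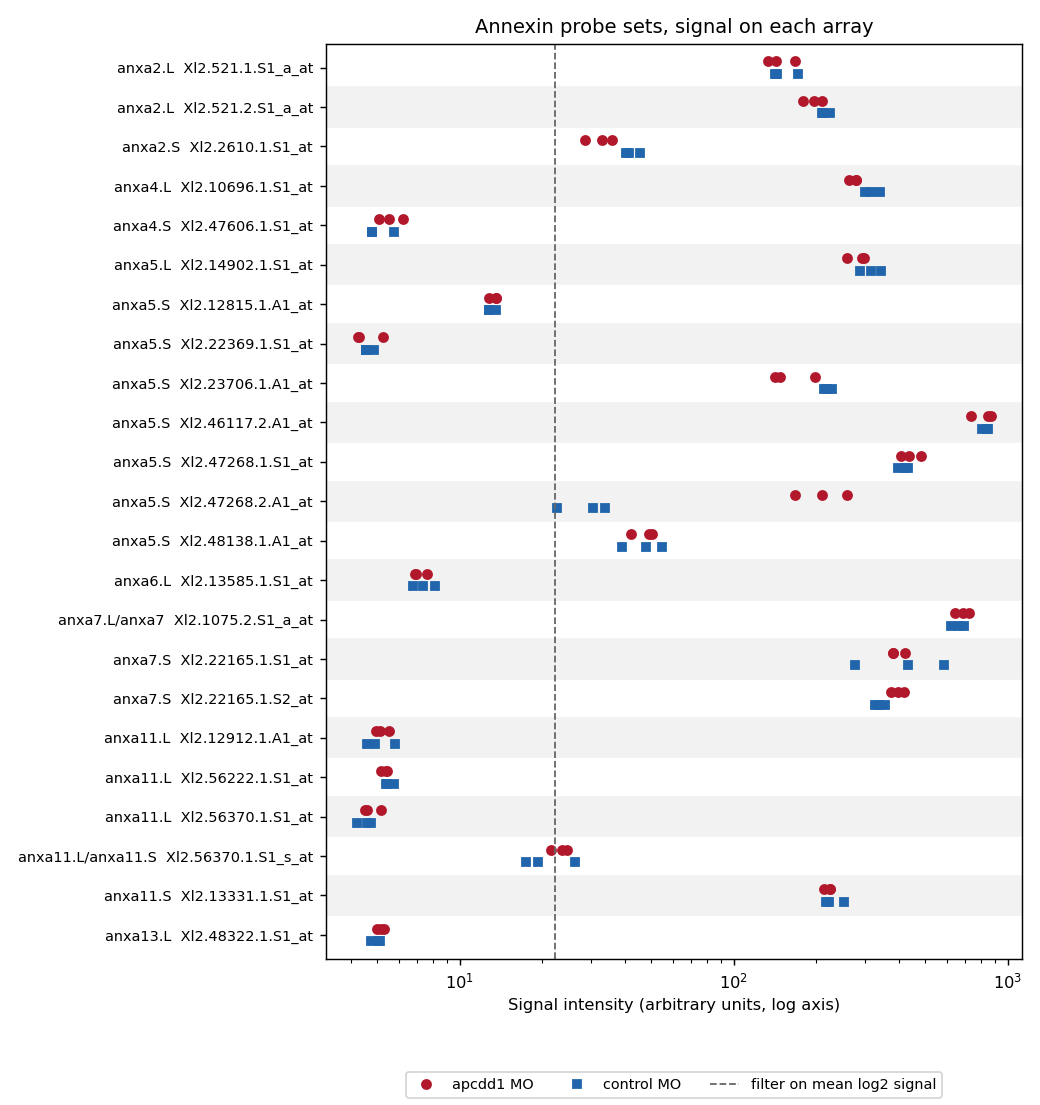
Signal intensity (arbitrary units, log axis) of each of the 23 annexin probe sets on the 3 arrays of apcdd1 MO embryos (circles) and the 3 arrays of control MO embryos (squares), with the filter at 22.3 as a dashed line. The groups lie far apart for anxa5.S on Xl2.47268.2.A1_at, and lie close together or overlap on the other probe sets.

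The homeolog anxa5.S is the reason the family was looked at. Annexin A5 binds phosphatidylserine, forms ordered arrays on membranes and is the protein used as a probe for dying cells. The platform annotation assigns 7 probe sets to anxa5.S, and these did not move together. The family was chosen by these log2 changes of anxa5.S, so its values are a description and carry no p.

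Probe set Xl2.47268.2.A1_at of anxa5.S had signals of 209, 260 and 167 in apcdd1 MO embryos, against 22.6, 30.7 and 33.8 in control MO embryos. All apcdd1 MO arrays lay above all control MO arrays, with a wide gap between the groups. The means were 212 ± 46.5 in apcdd1 MO embryos and 29.1 ± 5.78 in control MO embryos (SD, n = 3 each), a 7.27-fold difference (log2 change 2.86 ± 0.19 SE). By increase it ranked 11 among the 19484 tested probe sets. The control signals are close to the filter's 22.3 and may be background, which leaves the size of this fold uncertain.

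Probe set Xl2.47268.1.S1_at, whose name begins in the same way, had signals of 483, 437 and 408 in apcdd1 MO embryos, against 396, 420 and 433 in control MO embryos. The groups overlapped, and the log2 change was 0.09 ± 0.08 (SE). Probe set Xl2.46117.2.A1_at had signals of 736, 848 and 866 in apcdd1 MO embryos, against 845, 836 and 806 in control MO embryos. Here too the groups overlapped, with a log2 change of -0.03 ± 0.07 (SE). On Xl2.48138.1.A1_at the signals were 49.0, 50.2 and 42.1 in apcdd1 MO embryos and 39.1, 47.8 and 54.5 in control MO embryos. All apcdd1 MO values lay inside the control range, with a log2 change of 0.01 ± 0.13 (SE).

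A different direction was seen on Xl2.23706.1.A1_at of anxa5.S, with signals of 141, 198 and 147 in apcdd1 MO embryos, against 229, 219 and 213 in control MO embryos. All apcdd1 MO arrays lay below all control MO arrays, with array 2 close to them and arrays 1 and 3 well below. The log2 change was -0.46 ± 0.12 (SE). Leaving out single arrays moved it between -0.61 (without apcdd1 MO array 2) and -0.37 (without apcdd1 MO array 1). Array 2 was the highest of the apcdd1 MO arrays on this probe set as well as on Xl2.47268.2.A1_at.

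The remaining probe sets of anxa5.S were dim. Xl2.12815.1.A1_at had signals of 12.7, 13.5 and 13.6 in apcdd1 MO embryos and 13.5, 12.8 and 12.7 in control MO embryos. Xl2.22369.1.S1_at stood between 4.25 and 5.25 in apcdd1 MO embryos and between 4.53 and 4.88 in control MO embryos, close to the lowest signals of the arrays. Neither was tested, and their groups overlapped.

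**Figure D2:**
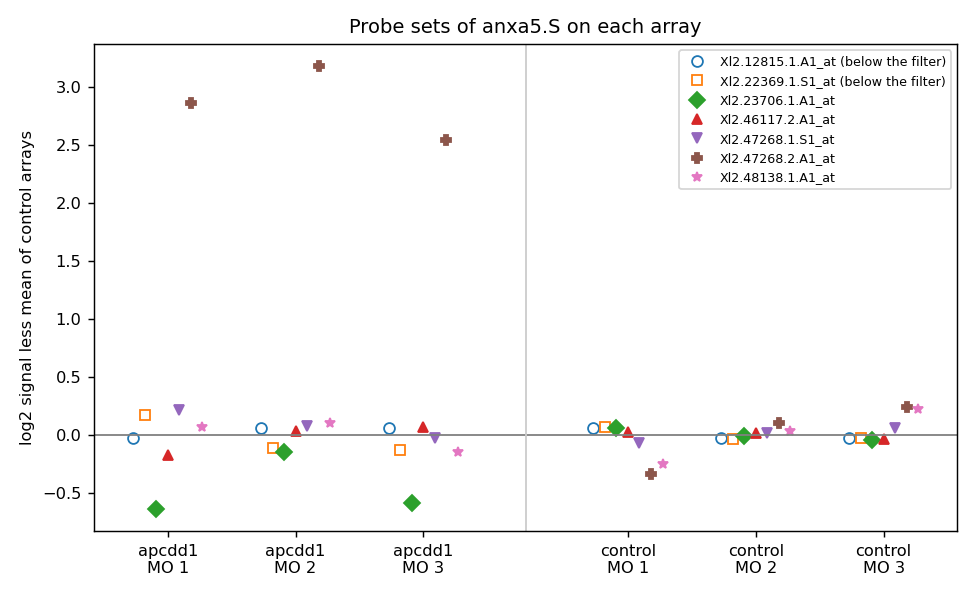
Log2 signal of the 7 anxa5.S probe sets on each array, less the mean of the 3 control MO arrays for that probe set; open symbols are below the filter. Xl2.47268.2.A1_at stands 2.54 to 3.18 above its control mean on the apcdd1 MO arrays, Xl2.23706.1.A1_at between -0.64 and -0.15, and the 5 others between -0.17 and 0.21.

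The log2 changes of the tested anxa5.S probe sets ran from -0.46 to 2.86, a span of 3.32, and the change of Xl2.47268.2.A1_at less that of Xl2.46117.2.A1_at was 2.89. The choice of the family for this disagreement fixed these spans, and the upper end rests on a probe set whose control signal may be background. The tested probe sets of anxa7.S spanned 0.28 and those of anxa2.L 0.10. Both have fewer tested probe sets than anxa5.S, and a span tends to grow with their number, so these spans are not like for like. Which transcript each probe set detects could not be examined here, because the assignment of all 7 to anxa5.S rests on the platform annotation alone and no probe or transcript sequence was used.

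The other homeolog, anxa5.L, was measured by Xl2.14902.1.S1_at. Its signals were 259, 294 and 298 in apcdd1 MO embryos, against 316, 344 and 289 in control MO embryos. The groups overlapped, and the log2 change of -0.16 ± 0.09 (SE) did not pass (adjusted p = 0.39 in limma).

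Annexin A2 is known in mammals to form a complex with the S100 protein S100A10 at the plasma membrane, where it links membranes to actin. For anxa2.S the signals on Xl2.2610.1.S1_at were 35.9, 33.1 and 28.7 in apcdd1 MO embryos, against 45.4, 41.4 and 40.2 in control MO embryos. All apcdd1 MO arrays lay below the control MO arrays. The log2 change was -0.38 ± 0.11 (SE, n = 3 each) and did not pass, with adjusted p = 0.082 in limma. After anxa5.S it was the largest change of the family, and 7.11% of all tested probe sets had one at least as large in either direction.

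The homeolog anxa2.L was measured by a pair of probe sets. On Xl2.521.2.S1_a_at the signals were 209, 196 and 178 in apcdd1 MO embryos, against 211, 210 and 224 in control MO embryos, just without overlap (log2 change -0.15 ± 0.08 SE, adjusted p = 0.38 in limma). On Xl2.521.1.S1_a_at they were 167, 142 and 133 in apcdd1 MO embryos, against 141, 144 and 171 in control MO embryos, with overlap (-0.05 ± 0.11 SE, adjusted p = 0.88 in limma). The anxa2.L change less that of anxa2.S was 0.24 and 0.34 on the log2 scale for these probe sets, a difference that was not tested.

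Annexin A4 binds membranes of epithelial cells in vertebrates. The signals of anxa4.L on Xl2.10696.1.S1_at were 264, 279 and 278 in apcdd1 MO embryos, against 341, 302 and 316 in control MO embryos. The groups did not overlap, with means of 274 ± 8.56 in apcdd1 MO and 319 ± 19.9 in control MO embryos (SD, n = 3 each). The log2 change was -0.22 ± 0.07 (SE). The adjusted p of 0.12 in limma missed the threshold. The homeolog anxa4.S was dim on its single probe set, between 5.07 and 6.23 in apcdd1 MO embryos and between 4.76 and 5.76 in control MO embryos.

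Annexin A7, also called synexin, promotes the fusion of membranes in mammalian cells and binds the EF-hand proteins sorcin and ALG-2. On Xl2.22165.1.S2_at of anxa7.S the signals were 397, 418 and 374 in apcdd1 MO embryos, against 357, 328 and 339 in control MO embryos. All apcdd1 MO arrays lay above the control MO arrays, with a log2 change of 0.21 ± 0.07 (SE) and adjusted p = 0.12 in limma. Beside Xl2.47268.2.A1_at of anxa5.S it was the only family probe set whose apcdd1 MO arrays all lay above.

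The other anxa7.S probe set, Xl2.22165.1.S1_at, had signals of 422, 380 and 380 in apcdd1 MO embryos, against 582, 431 and 276 in control MO embryos. The apcdd1 MO values lay inside a wide control range, with SDs of 24.2 in apcdd1 MO and 153 in control MO embryos. Its log2 change was -0.06 ± 0.25 (SE), and leaving out single arrays moved it between -0.35 and 0.19, so no direction can be given. The probe set listed under both anxa7.L and anxa7, Xl2.1075.2.S1_a_at, had signals of 642, 684 and 722 in apcdd1 MO embryos, against 664, 690 and 618 in control MO embryos, with overlap (0.05 ± 0.07 SE, adjusted p = 0.75 in limma).

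Annexin A11, which in mammals has a long N-terminal part and binds ALG-2 too, was bright enough on 1 of its 5 probe sets. Xl2.13331.1.S1_at of anxa11.S had signals of 214, 224 and 225 in apcdd1 MO embryos, against 223, 253 and 217 in control MO embryos. The groups overlapped, with a log2 change of -0.06 ± 0.08 (SE) and adjusted p = 0.76 in limma. Xl2.56370.1.S1_s_at, which is listed under both anxa11.L and anxa11.S, lay just at the filter with 23.6, 21.6 and 24.6 in apcdd1 MO embryos and 19.3, 26.4 and 17.5 in control MO embryos. The 3 probe sets of anxa11.L alone stood between 4.52 and 5.51 in apcdd1 MO embryos and between 4.23 and 5.79 in control MO embryos.

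Annexin A6, whose core is duplicated, and annexin A13, known in mammals from intestinal and kidney epithelium, were dim. The single probe set of anxa6.L was at 7.58, 6.88 and 6.91 in apcdd1 MO embryos and at 6.76, 8.09 and 7.36 in control MO embryos. That of anxa13.L was at 5.14, 5.28 and 4.99 in apcdd1 MO embryos and at 5.10, 4.74 and 5.06 in control MO embryos. None of the 9 dim annexin probe sets passed the threshold when all probe sets were fitted without the filter in limma. Their log2 changes there ran from -0.05 to 0.16.

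**Figure D3:**
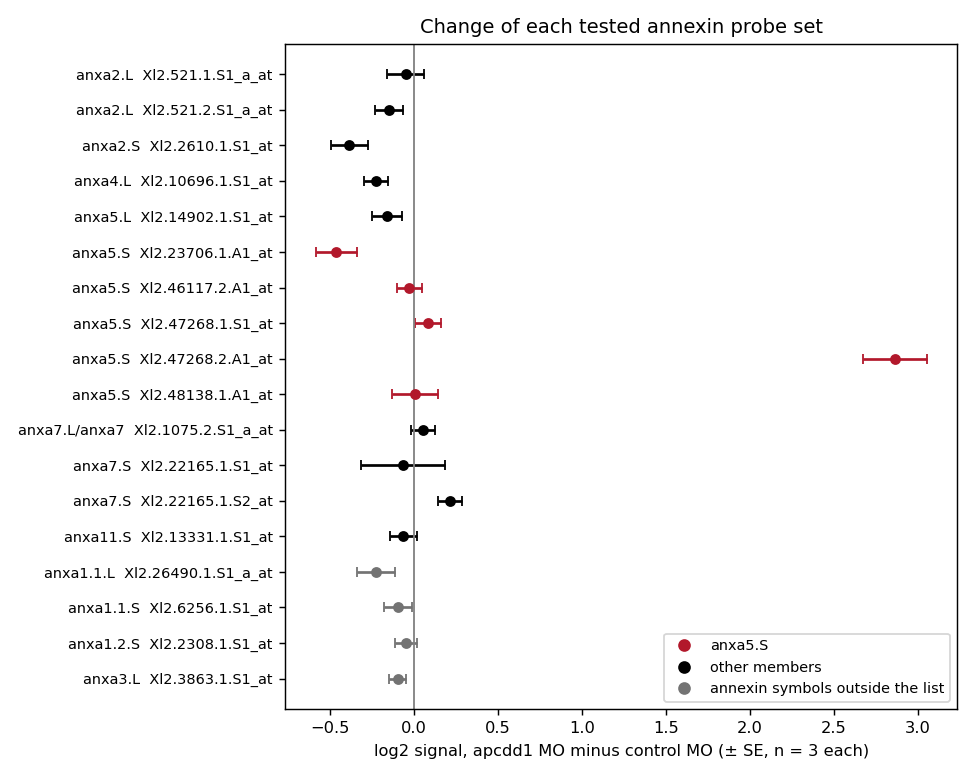
Log2 change (apcdd1 MO minus control MO, ± SE, n = 3 each) of the 14 tested annexin probe sets and of 4 tested probe sets with annexin symbols outside the list. Xl2.47268.2.A1_at of anxa5.S stands at 2.86, and the rest lie between -0.46 and 0.21.

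Without anxa5, the family had 8 tested probe sets, of which 0 passed in limma (unadjusted p under 0.05 for 1 higher and 2 lower, beside 8.99% and 9.99% of all tested probe sets). Their log2 changes had a median of -0.06 and ran from -0.38 to 0.21. On 1 of the 8 all apcdd1 MO arrays lay above the control MO arrays, and on 3 all lay below. Over all tested probe sets these shares were 11.9% and 12.8%. With anxa5 the counts were 2 and 4 of 14. Those counts hold anxa5.S probe sets whose contrast chose the family, so nothing is read from them.

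Annexin symbols that the list leaves out were set beside the family, on 7 probe sets of which 4 were tested. None of the 4 passed in limma, beside 3.00% higher and 3.61% lower of all tested probe sets. At an unadjusted p under 0.05 the count was 0 as well, beside 8.99% and 9.99%. Each of the 4 had a negative log2 change, as did 9728 of all 19484 tested probe sets. anxa1.1.L was at 97.5, 120 and 102 in apcdd1 MO embryos, against 139, 126 and 110 in control MO embryos (-0.23 ± 0.11 SE). anxa3.L was at 2180, 2243 and 2199 in apcdd1 MO embryos, against 2458, 2356 and 2255 in control MO embryos, without overlap (-0.09 ± 0.05 SE, adjusted p = 0.37 in limma). The log2 changes of anxa1.1.S and anxa1.2.S were -0.09 and -0.05, and anxa1.2.L, anxa1.3.S and anxa9.L were dim.

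Genes that work with annexins were taken as 4 lists with 83 distinct tested probe sets, of which 0 were called higher and 1 lower, beside 3.00% and 3.61% of all tested probe sets. The shares of all probe sets for the unadjusted counts that follow are 8.99% higher and 9.99% lower. Of the binding partners, 5 of 19 listed genes were found by symbol, with 7 tested probe sets, and 0 passed in limma (0 higher and 1 lower at an unadjusted p under 0.05). The nearest was s100a11.L, whose protein binds annexin A1 in mammals, with 395, 404 and 364 in apcdd1 MO embryos, against 446, 451 and 498 in control MO embryos. It was below on all apcdd1 MO arrays, by -0.26 ± 0.07 on the log2 scale (SE; adjusted p = 0.070 in limma). The genes of sorcin, sri.L and sri.S, and of ALG-2, pdcd6.L, had log2 changes of 0.07, 0.04 and -0.04. The median of this list was -0.04.

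In the list of plasma membrane repair and ESCRT-III genes, the machinery that cuts damaged membrane away, 0 of 41 tested probe sets passed upward and 1 downward in limma (6 higher and 3 lower at an unadjusted p under 0.05). The called one belonged to vps4a.L, the ATPase that takes ESCRT-III apart, with 36.8, 37.0 and 46.4 on Xl2.23565.2.S1_at in apcdd1 MO embryos, against 77.8, 69.7 and 78.4 in control MO embryos. All apcdd1 MO arrays lay well below (log2 change -0.92 ± 0.12 SE, adjusted p = 0.0014 in limma). Like anxa5.S, vps4a.L had probe sets that differed among themselves, since Xl2.23565.1.S1_a_at gave -0.57 ± 0.17 and Xl2.23565.1.S1_at gave -0.02 ± 0.08 (SE), neither past the threshold. Without apcdd1 MO array 3, Xl2.23565.1.S1_a_at passed as well, at -0.75, and it passed under no other alternative. That array was the one nearest the controls, at 84.1 against 98.2, 97.8 and 94.2 in control MO embryos.

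In the list of other proteins that bind phospholipids with calcium through C2 domains, 0 of 14 tested probe sets passed in limma (1 higher and 0 lower at an unadjusted p under 0.05). The largest change was in the copine gene cpne3.L, 0.78 on the log2 scale on Xl2.56000.1.S1_at (adjusted p = 0.076 in limma). The signals there were 62.3, 102 and 115 in apcdd1 MO embryos, against 57.9, 48.7 and 51.7 in control MO embryos. Of all alternatives run, cpne3.L passed only without apcdd1 MO array 1, the one nearest the controls, at 1.04. Its other probe set, Xl2.18746.1.S1_at, gave -0.15. In the list of phosphatidylserine exposure and apoptosis, the lipid that annexin A5 binds, 0 of 22 passed in limma (0 higher and 3 lower at an unadjusted p under 0.05). The caspase gene casp2.L had its lowest value, -0.42. The medians of these lists were -0.03 for membrane repair, -0.04 for the C2 proteins and -0.04 for phosphatidylserine and apoptosis.

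By the likeness rule, the genes nearest to Xl2.47268.2.A1_at of anxa5.S were sought among 10473 named, tested probe sets outside the family. Likeness was the root mean square distance, over the 6 arrays, between log2 signals from which the mean of the control MO arrays had been taken. The nearest was plk2.L, a polo-like kinase gene, at a distance of 0.11, with 119, 123 and 94.8 in apcdd1 MO embryos, against 11.9, 15.0 and 19.4 in control MO embryos. Then came the cyclin G1 gene ccng1.S at 0.28, with 360, 396 and 312 in apcdd1 MO embryos, against 58.9, 59.2 and 52.9 in control MO embryos. The next were the poly(ADP-ribose) polymerase gene parp3.L (0.48), the RNA-binding gene cirbp.L (0.55) and the pleiotrophin gene ptn.L (0.63). Their likeness over these arrays is what picked them and is no further finding. In control MO embryos plk2.L and parp3.L were dimmer than the filter, and they passed it only through their apcdd1 MO signals. Each gene is shown here by a single probe set. The tested probe sets of ccng1.S (3) and of cirbp.L (2) did not move together, with log2 changes that spanned 2.40 and 2.18.

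**Figure D4:**
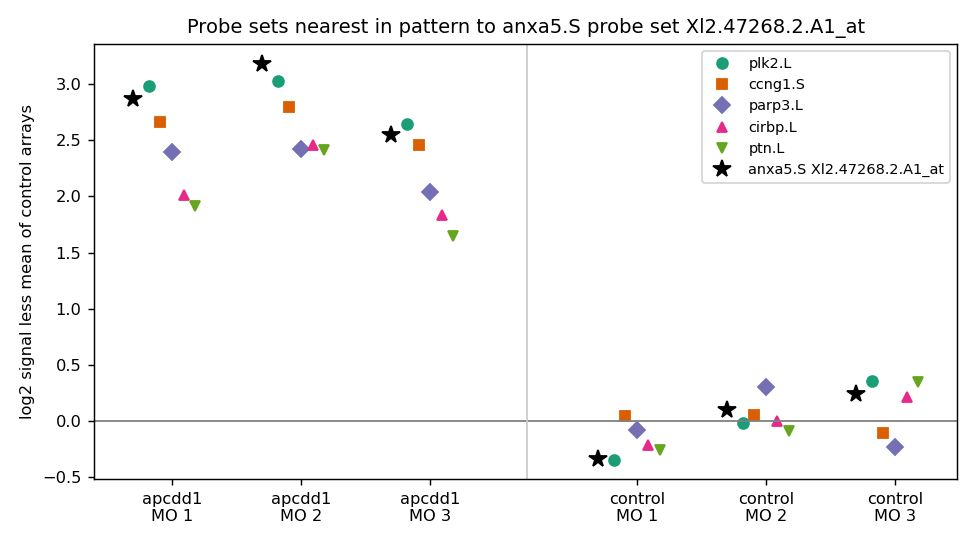
Log2 signal on each array, less the mean of the control MO arrays, of Xl2.47268.2.A1_at of anxa5.S (stars) and of the 5 nearest genes. The genes were picked for this likeness, at distances of 0.11 to 0.63, and plk2.L lies closest.

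Measures of the whole arrays were set side by side for the groups. Median signals overlapped, at 45.0 to 45.9 in apcdd1 MO and 44.8 to 46.2 in control MO embryos. The gapdh 3' to 5' signal ratio, a sign of RNA integrity, was 1.87 ± 0.07 in apcdd1 MO and 1.77 ± 0.03 in control MO embryos (SD, n = 3 each), without overlap. The targeted gene, apcdd1.L, was at 246 ± 15.5 in apcdd1 MO and 308 ± 7.55 in control MO embryos. This log2 change of -0.33 ± 0.07 (SE) passed the threshold (adjusted p = 0.027 in limma). The RNA level alone does not measure how well the morpholino worked. Organizer genes that mark dorsal tissue ranged from bright to dim. A bright one was gsc.S, at 1150 ± 16.0 in apcdd1 MO and 1374 ± 157 in control MO embryos, which did not pass (adjusted p = 0.10 in limma). Near the filter was hesx1.L, at 21.4 ± 0.92 in apcdd1 MO and 25.1 ± 0.44 in control MO embryos, and 4 probe sets of the list were left out as dim. Of the organizer and dorsal mesoderm markers, 5 of 22 tested probe sets passed in limma, all lower. The summed signal of the 22 was 19422 to 20690 in apcdd1 MO and 22319 to 25560 in control MO embryos. Their log2 changes were all negative, from -0.58 to -0.03, with a median of -0.22. Unadjusted counts were 0 higher and 13 lower (p under 0.05 in limma), beside 8.99% and 9.99% of all tested probe sets. Of the epidermal ectoderm markers, 4 of 17 passed, all higher, with sums of 7712 to 7954 in apcdd1 MO and 6232 to 6912 in control MO embryos. They were foxi1.L, grhl3.L, grhl1.L and 1 probe set of foxi4.2.S, while no probe set of the keratin genes krt8.1 and krt18.1 passed. A large part of the difference in sums lay in foxi1.L, at 718 ± 30.5 in apcdd1 MO and 54.2 ± 5.65 in control MO embryos. At an unadjusted p under 0.05 in limma, 6 epidermal probe sets were higher and 2 lower, beside 8.99% and 9.99% of all tested probe sets. The lower ones were of tfap2a.S (-0.23) and krt8.1.S (-0.19). Of the ventral and lateral mesoderm markers 3 of 12 passed, all higher. They were of ventx1.2.S, ventx2.1.S and ventx2.1.L. The median log2 change of this list was -0.03, and its changes ran from -0.35 for gata2.L to 0.57 for ventx1.2.S. Its unadjusted counts were 4 higher and 0 lower (p under 0.05 in limma), beside 8.99% and 9.99% of all tested probe sets. Of the endoderm markers 3 of 16 passed and of the neural plate markers 4 of 16, all lower. Among the neural plate calls, pou3f2.S had means of 18.7 in apcdd1 MO and 28.1 in control MO embryos. For foxd4l1.2.L they were 22.3 and 31.3. Both passed the filter only through their control MO signals, which favours a lower call. The other calls were of sall1.L and sox2.L, whose remaining tested probe sets did not pass. Over all tested probe sets the shares that passed were 3.00% higher and 3.61% lower. Ventral and lateral sums were 4815 to 5121 in apcdd1 MO and 4149 to 4423 in control MO embryos. A large part of this difference lay in ventx2.1.S, at 1370 ± 74.5 in apcdd1 MO and 991 ± 85.0 in control MO embryos. Another part lay in ventx2.1.L, at 1379 ± 14.6 in apcdd1 MO and 1115 ± 76.9 in control MO embryos. For neural plate the sums were 24348.5 to 26340.2 in apcdd1 MO and 26838.7 to 27781.9 in control MO embryos. The endoderm sums overlapped, at 15476 to 17951 in apcdd1 MO and 16066 to 17441 in control MO embryos. The endoderm calls were of gata6.S, a2m.S and 1 probe set of gata4.S, while another of gata4.S gave a log2 change of 0.18. The endoderm changes ran from -0.86 to 0.37, with a median of -0.02. At an unadjusted p under 0.05 in limma, 2 endoderm probe sets were higher and 4 lower, beside 8.99% and 9.99% of all. For neural plate probe sets these counts were 0 and 4, with log2 changes from -0.58 to 0.11 and a median of -0.12. The part of these differences in the annexin values was not tested. In such pieces of tissue, fewer cells of a type and less RNA per cell cannot be told apart.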

How the data were processed

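RNA of 6 batches (3 with the apcdd1 MO, 3 with the control MO; 6 ug total RNA each) was hybridised to 1-colour Affymetrix arrays, per the labels' protocols. The deposited values are signal intensities on a linear scale, for which MAS5 is named, without version, in the submitters' processing notes; scaling, genome build and detection calls are not given in the sources used here. Of 32634 probe sets, 160 controls were set apart. Symbols came from the platform annotation (15504 with 1 symbol, 279 with several, 16851 unnamed here), and 15393 gene numbers matched RefSeq's table of Xenopus laevis.

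Signals were log2-transformed without further scaling. Probe sets under the 40th percentile of mean log2 signal were left out (12990), and 19484 were tested with limma 3.58.1 in R 4.3.3 (eBayes with trend and robust, two-sided, Benjamini-Hochberg, threshold 0.05). The method was checked on simulated data. Precision is limited by the number of arrays; with 3 per group no exact permutation p falls below 0.1. The members, the lists and the rule for named genes (all family probe sets, up to 4 called genes per list, apcdd1 and the 5 nearest patterns) were chosen with earlier results of these data known. Uncalled genes of the lists, annexins outside the list and marker genes are named outside that rule, for description only. Alternatives were median centring, quantile normalization, an offset of 16 before log2, no filter, a filter at the 60th percentile, eBayes without trend and robust, the replicate number as a block, and leaving out each array. No sequence was used.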

Additional observations from a re-analysis of the deposited data

How the results depend on the processing

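The 14 tested annexin probe sets gave 1 call upward and 0 downward in limma. Calls of anxa5.S are counted here only to describe the settings, since its contrast chose the family. The filter at the 60th percentile gave 0 upward, because it leaves Xl2.47268.2.A1_at of anxa5.S out. Median centring gave 1 downward, Xl2.23706.1.A1_at of anxa5.S (log2 change -0.46), and leaving out single arrays gave 0 to 1 downward, the same probe set, called without apcdd1 MO array 2. The log2 change of Xl2.47268.2.A1_at was 2.33 to 3.02 under the alternatives that kept it. Its change less that of Xl2.46117.2.A1_at was 2.89, and 2.35 with log2 of signal plus 16, which shrinks changes of dim probe sets. Leaving out single arrays moved that difference between 2.70 and 3.09. The family's median log2 change stayed negative under all alternatives run, between -0.09 and -0.02. The interquartile range of all tested probe sets as reported, -0.10 to 0.10, is a spread of single probe sets and not of such a median. A shift of the family was not tested, and none is read from these values.

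In the 4 related lists, leaving out single arrays gave 0 to 1 calls upward (cpne3.L without apcdd1 MO array 1) and 1 to 2 downward (another vps4a.L probe set without apcdd1 MO array 3). With the filter at the 60th percentile the called vps4a.L probe set was left out, and vps4b.L (-0.29) was the call. Over all probe sets, 585 were called higher and 704 lower, and leaving out single arrays gave 306 to 610 and 362 to 816. The counts were lowest without control MO array 2 (306 and 362), with 317 and 418 without apcdd1 MO array 3 and 383 higher without apcdd1 MO array 2. With the replicate number as a block these counts were 480 and 621, and no annexin call changed. Same-numbered arrays did not deviate together (correlations of 0.05, 0.02 and -0.27, against -0.24 to 0.21 for differently numbered ones). With 3 arrays per group these values cannot show whether same-numbered batches shared a clutch. The array values have no detection calls, so probe sets near the filter could not be told from background.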
